A study of Mus musculus with 10 samples.

Results

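The genes described here serve sodium and water transport in the principal cells of the kidney collecting duct. They were taken by symbol from a set of 10 that was chosen with earlier results of these data known. The set holds the water channels Aqp2, Aqp3 and Aqp4 and the subunits Scnn1a, Scnn1b and Scnn1g of the epithelial sodium channel (ENaC). It also holds the vasopressin receptor gene Avpr2, the mineralocorticoid receptor gene Nr3c2, Hsd11b2 and Fxyd4. All 10 were found among the 13837 genes of the table of values, and all 10 passed the filter on low values. The comparison was between whole kidneys of 5 Rragc+/+ and 5 Rragc S74N/+ mice aged 3 months, each giving 1 library. The S74N allele is a germline knock-in in exon 1 of Rragc, made in C57BL/6 mice and carried in heterozygosity by every cell of the animal. It encodes an activating form of RagC, and the authors report modestly raised mTORC1 activity in heterozygous embryonic fibroblasts. The Rragc+/+ mice are the wild-type comparison, the labels name no treatment, and the sex of the mice is not given in the sources used here. Reads came from the 3′ end of polyadenylated transcripts, so a normalized count (reads divided by the size factor of the library) does not grow with transcript length and was not divided by it.

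Principal cells take up water and sodium under the control of hormones. Vasopressin binds the receptor encoded by Avpr2, raises cAMP and sends Aqp2 to the apical membrane, and water leaves the cell through the basolateral channels Aqp3 and Aqp4. Aldosterone binds the mineralocorticoid receptor, encoded by Nr3c2, and increases apical sodium entry through ENaC, while the enzyme encoded by Hsd11b2 keeps glucocorticoids off that receptor. Fxyd4 encodes a small partner of the basolateral sodium pump. Several of these genes are also active outside principal cells: Avpr2 in the thick ascending limb, and the ENaC subunits, Hsd11b2 and Nr3c2 in the connecting tubule and late distal convoluted tubule.

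Of the 10 genes, 2 rose in Rragc S74N/+ kidneys and 0 fell (limma, adjusted p under 0.05 over 13197 genes), beside 3.69% of all genes tested (1.67% higher and 2.02% lower). Avpr2 and Hsd11b2 are these 2 genes. Another 4, Scnn1g, Aqp3, Scnn1a and Aqp2, had adjusted p values from limma between 0.0502 and 0.0887 and their calls changed with the settings of the test. The 10 genes were chosen with earlier results of these data known, so the values over all genes set beside them are a description and not a test. The log2 fold change was above 0 for 7 genes and below 0 for 3, with a median of 0.33, against a median of 0.0005 over all genes tested. For 3 of the 10 genes, Avpr2, Aqp3 and Scnn1g, every Rragc S74N/+ mouse lay above every Rragc+/+ mouse, beside 2.29% of all genes tested, and for 0 every mouse lay below, beside 2.71%. Before adjustment, 6 of the 10 genes had a p under 0.05, beside 15.4% of all genes. edgeR called 1 of the 10 (Avpr2), beside 3.64% of all genes, and DESeq2 called 6, beside 4.91%. With the run of library codes as a covariate limma called 5, beside 6.3%, and in the second run alone 2, beside 2.62%. In whole-kidney RNA, fewer cells of a type and less RNA per cell cannot be told apart.

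**Figure D1:**
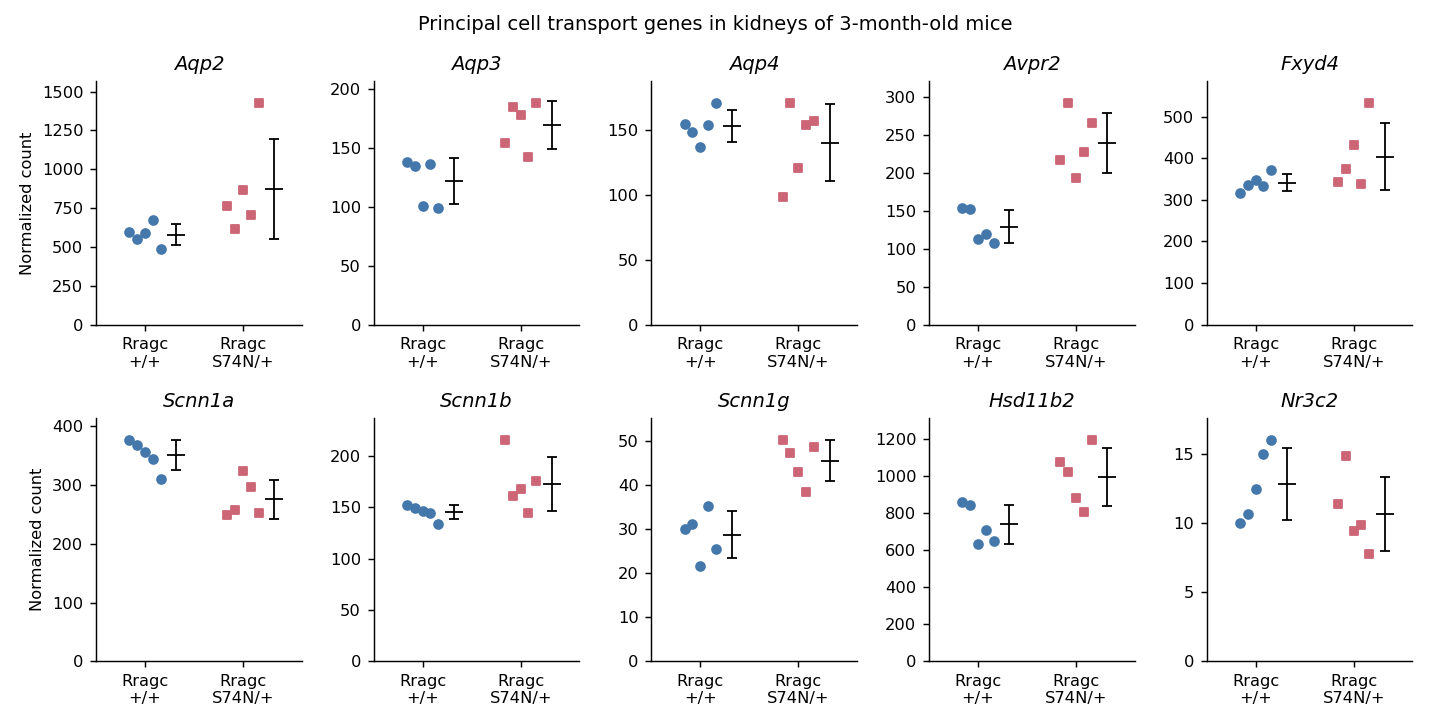
Normalized counts of the 10 genes in each mouse (y axes, linear and from 0), with Rragc+/+ mice as circles and Rragc S74N/+ mice as squares, and the mean ± SD as a bar (n = 5 per genotype). Avpr2, Aqp3 and Scnn1g show no overlap between genotypes, and 1 Rragc S74N/+ mouse stands far above the other 4 for Aqp2.

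Between 6501552 and 7996087 reads on genes were recovered per library. Over all 10 mice, library depth did not separate the genotypes (two-sided exact permutation test, p = 0.595). Rragc itself was counted at 244 to 347 in Rragc+/+ and 189 to 248 in Rragc S74N/+ mice; gene counts do not show the S74N substitution. By their codes the libraries form a first run and a second run, the first made up of Rragc+/+ replicates 1 and 2 and Rragc S74N/+ replicate 1, and what a run stands for is not given in the labels; the first run holds too few mice for a value of its own. Rragc S74N/+ replicate 5 stood apart in markers of the papillary urothelium, the lining of the renal pelvis: the summed normalized count of the 4 measured genes of that list was 818 in this mouse and 142 to 317 in the other 9. The same mouse had the highest Aqp2, Aqp3, Hsd11b2 and Fxyd4 of all 10 mice, so those genes are also given without it, and the part of tissue sampling in the results was not tested.

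The promoters of Avpr2 and Aqp2, the receptor that receives the vasopressin signal and the channel that carries it out, are shown because the receptor gene changed the most among the 10. The sequences are the 250 bases before the start of each gene (RefSeq, GRCm38.p6, + strand), at chr15:99578806-99579055 for Aqp2 and chrX:73891852-73892101 for Avpr2; the reads were counted on a different build, GRCm39. Capitals mark matches on either strand to the short form of the cAMP response element (TGACG, which lies within the whole element TGACGTCA). Also marked are the short steroid receptor site (AGAACA, a part of the whole site), the E-box (CACGTG) and the GATA site (AGATAA).
Aqp2: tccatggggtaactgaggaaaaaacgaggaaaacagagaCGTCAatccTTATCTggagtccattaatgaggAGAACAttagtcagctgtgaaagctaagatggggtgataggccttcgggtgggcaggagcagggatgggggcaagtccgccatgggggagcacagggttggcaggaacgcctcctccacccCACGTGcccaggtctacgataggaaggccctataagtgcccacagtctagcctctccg
Avpr2: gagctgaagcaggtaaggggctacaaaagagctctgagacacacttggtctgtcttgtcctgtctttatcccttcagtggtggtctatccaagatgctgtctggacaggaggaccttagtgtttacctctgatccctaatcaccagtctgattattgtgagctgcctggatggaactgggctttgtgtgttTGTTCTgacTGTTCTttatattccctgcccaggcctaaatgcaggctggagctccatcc
Read 5′ to 3′, the Aqp2 sequence holds a short cAMP element in reverse orientation 211 bases before the start. It holds a GATA site in reverse at 202, a short steroid site at 179 and an E-box at 58 bases before the start. The Avpr2 sequence holds the short steroid site in reverse at 59 and again at 50 bases before the start, and no other of these motifs. Promoters of 7 of the 10 genes were in the reference table. Of all 32851 promoter windows of this length, 17.8% hold TGACG, 16.1% hold AGAACA, 9.99% hold AGATAA and 6.02% hold CACGTG, so each is common. The whole cAMP response element, TGACGTCA, is in 1.55% of all windows and in 0 of the 7. A match is a description of letters and not of binding.

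Avpr2, which encodes the V2 vasopressin receptor, rose 1.85-fold (95% interval 1.51 to 2.25) in Rragc S74N/+ kidneys. Rragc+/+ replicates 1 to 5 had 153, 152, 112, 120.1 and 108 normalized counts. Rragc S74N/+ replicates 1 to 5 had 217, 292, 193, 227 and 266. Every Rragc S74N/+ mouse was above every Rragc+/+ mouse, with means of 239 ± 39.3 and 129 ± 22.0 (SD, n = 5 each). On the log2 scale Avpr2 differed by 0.88 (standard error 0.14, adjusted p = 0.000756 by limma), and the exact permutation test of the values alone gave p = 0.00794, the smallest that 5 mice against 5 allow. Avpr2 passed in all 11 other settings of the test and with each of the 10 mice omitted in turn, when it ran from 0.81 to 0.96 on the log2 scale. Within the second run of library codes alone it was 1.09 on the log2 scale (adjusted p = 0.00148 by limma). Without Rragc S74N/+ replicate 5 it was 0.84 (adjusted p = 0.00188 by limma). Of 6 markers of the thick ascending limb, where Avpr2 is also active, 3 fell, 1 rose (Cldn16) and 2 did not pass. Their summed count, most of it from Umod, was 14208 to 23831 in Rragc S74N/+ mice and 31872 to 41277 in Rragc+/+ mice, and their part in the Avpr2 result was not tested.

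Aqp2, the apical water channel that vasopressin regulates, was higher in every Rragc S74N/+ mouse than the Rragc+/+ mean, without passing the test. Rragc+/+ replicates had 595, 549, 593, 671 and 486 normalized counts. Rragc S74N/+ replicates had 766, 615, 865, 703 and 1425. The genotypes overlapped, since Rragc S74N/+ replicate 2 was below the highest Rragc+/+ mouse, and replicate 5 was far above the rest. The SD was 321 in Rragc S74N/+ and 68.1 in Rragc+/+ mice (n = 5 each). On the log2 scale Aqp2 differed by 0.54 (standard error 0.17, 95% interval 0.19 to 0.89, adjusted p = 0.0887 by limma). Without Rragc S74N/+ replicate 5, the library with high papillary urothelium markers, it was 0.35 (adjusted p = 0.111 by limma), and without replicate 2 it was 0.65 (adjusted p = 0.0364 by limma).

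Aqp3, a basolateral channel for water and glycerol, had 138, 134, 101, 136 and 99.3 normalized counts in Rragc+/+ replicates. It had 154, 185, 178, 142 and 188 in Rragc S74N/+ replicates. All 5 Rragc S74N/+ mice were above all 5 Rragc+/+ mice, with means of 169 ± 20.2 and 122 ± 19.8 (SD, n = 5 each), although the nearest mice of the genotypes were close. On the log2 scale Aqp3 differed by 0.48 (standard error 0.13, 95% interval 0.20 to 0.76) and the adjusted p from limma, 0.051, lay just above the threshold. It was 0.44 without Rragc S74N/+ replicate 5 (adjusted p = 0.107 by limma), and it passed on omission of Rragc S74N/+ replicate 4 (0.54, adjusted p = 0.0454 by limma) or Rragc+/+ replicate 1 (0.53, adjusted p = 0.0457 by limma). Aqp4, the other basolateral water channel, had a log2 fold change of -0.15 (95% interval -0.45 to 0.15, adjusted p = 0.694 by limma), and its values spanned 137 to 171 in Rragc+/+ mice, against 98.6 to 171 in Rragc S74N/+ mice. The interval of Aqp4 leaves room for a change of either sign.

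None of the 3 ENaC subunits passed the test, and their log2 fold changes differed in sign. Scnn1a, which encodes the α subunit, had 376, 367, 356, 344 and 309.6 normalized counts in Rragc+/+ replicates. In Rragc S74N/+ mice it had 248.5, 256.4, 323.7 and 296.5 in replicates 1 to 4, with replicate 5 between replicates 1 and 2. All 5 Rragc S74N/+ mice were below the Rragc+/+ mean and 4 of 5 below the lowest Rragc+/+ mouse. The log2 fold change of Scnn1a was -0.35 (standard error 0.10, 95% interval -0.56 to -0.14, adjusted p = 0.0613 by limma), and it was -0.26 (adjusted p = 0.307 by limma) in the second run of library codes alone. Scnn1a passed on omission of Rragc S74N/+ replicate 3 (-0.41, adjusted p = 0.0262 by limma).

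Scnn1g, which encodes the γ subunit, was the least abundant of the 3 subunits, with 19 to 53 recovered reads per library. Rragc+/+ replicates had 30.1, 31.1, 21.5, 35.4 and 25.6 normalized counts. Rragc S74N/+ replicates had 50.3, 47.4, 43.1, 38.5 and 48.7, all above every Rragc+/+ mouse. On the log2 scale Scnn1g differed by 0.66 (standard error 0.18, 95% interval 0.28 to 1.04) and its adjusted p from limma was 0.0502. Scnn1b, which encodes the β subunit, had 152, 149, 146, 145 and 133 normalized counts in Rragc+/+ replicates and 215, 161, 167, 144 and 175 in Rragc S74N/+ replicates. The log2 fold change of Scnn1b was 0.24 (95% interval -0.01 to 0.48, adjusted p = 0.347 by limma), and Rragc S74N/+ replicate 4 lay within the Rragc+/+ range. Scnn1b and Scnn1g lie on the same chromosome, 7, and Scnn1a on chromosome 6.

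The balance between the subunits was also taken per mouse. The ratio of Scnn1a to Scnn1b normalized counts was 2.47, 2.46, 2.43, 2.38 and 2.32 in Rragc+/+ replicates (2.41 ± 0.0618, SD, n = 5). It was 1.15, 1.6, 1.94, 2.05 and 1.44 in Rragc S74N/+ replicates (1.64 ± 0.367, SD, n = 5), so that the highest Rragc S74N/+ ratio was below the lowest Rragc+/+ ratio. For Scnn1a to Scnn1g, the ratio was 9.73 to 16.5 in Rragc+/+ and 4.94 to 7.69 in Rragc S74N/+ mice, again without overlap. The ratio of Scnn1b to Scnn1g overlapped, at 4.09 to 6.79 in Rragc+/+ and 3.39 to 4.28 in Rragc S74N/+ mice. Both ratios to Scnn1g were spread widely among Rragc+/+ mice (SD 2.48 for Scnn1a and 0.992 for Scnn1b). Scnn1a made up 65.6% to 68.0% of the summed subunit counts in Rragc+/+ and 48.3% to 61.9% in Rragc S74N/+ mice, while Scnn1g made up 4.11% to 6.75% and 8.04% to 10.2%. The sum of the subunit counts overlapped between genotypes, with 525 ± 34.7 in Rragc+/+ and 494 ± 29.2 in Rragc S74N/+ mice (SD, n = 5 each). These ratios are a description and were not tested, and a ratio shows unequal change without saying which subunit changed. Scnn1g alone also showed no overlap between genotypes. The share of all pairs of genes whose ratio does not overlap was not taken.

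**Figure D2:**
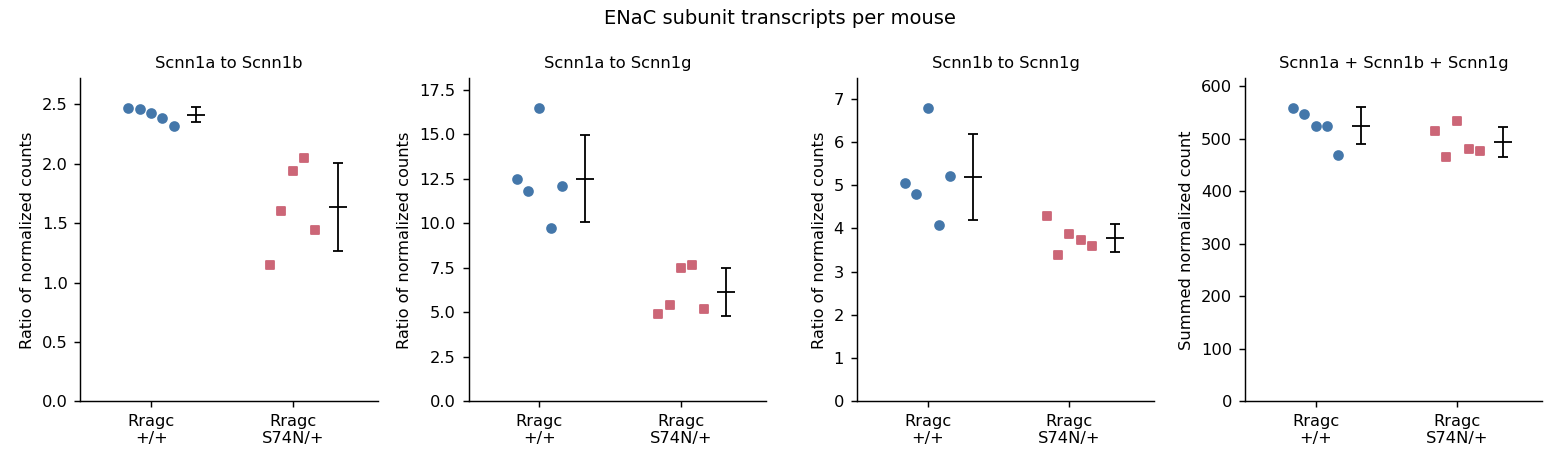
Ratios of Scnn1a to Scnn1b, Scnn1a to Scnn1g and Scnn1b to Scnn1g, and summed normalized count of the ENaC subunits in each mouse (linear axes from 0; circles Rragc+/+, squares Rragc S74N/+, bars mean ± SD, n = 5). The ratios of Scnn1a to Scnn1b (2.32 to 2.47 against 1.15 to 2.05) and to Scnn1g separate the genotypes, whereas Scnn1b to Scnn1g and the sums overlap.

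In the mineralocorticoid axis, Hsd11b2 rose 1.35-fold (95% interval 1.14 to 1.59). This gene encodes 11β-hydroxysteroid dehydrogenase type 2, which inactivates glucocorticoids in aldosterone target cells. Rragc+/+ replicates had 863, 842, 633, 709 and 652 normalized counts, and Rragc S74N/+ replicates had 1078, 1024, 882, 806 and 1196. Of the Rragc S74N/+ mice, 4 of 5 were above the highest Rragc+/+ mouse, with means of 997 ± 156 and 739.7 ± 107 (SD, n = 5 each). The log2 fold change was 0.43 (standard error 0.12), and the adjusted p from limma, 0.0478, lay just under the threshold. The call held in 7 of the 11 other settings. It was lost on omission of Rragc S74N/+ replicate 1, 2 or 5 or of Rragc+/+ replicate 3, 4 or 5, with limma adjusted p values up to 0.149; without Rragc S74N/+ replicate 5 it was 0.36 on the log2 scale (adjusted p = 0.106 by limma). In the second run of library codes alone the log2 fold change of Hsd11b2 was 0.54 (adjusted p = 0.0378 by limma).

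Nr3c2, the mineralocorticoid receptor gene, was counted at only 8 to 16 recovered reads per library. Its normalized counts ran from 10.04 to 16.02 in Rragc+/+ mice, and the Rragc S74N/+ mice spanned 7.78 to 14.9. Its log2 fold change of -0.25 had a 95% interval from -0.85 to 0.34 (adjusted p = 0.747 by limma), so a change of this size was not detectable at this depth. Fxyd4, also known as CHIF, had 317, 336, 347, 333 and 372 normalized counts in Rragc+/+ replicates and 342, 374, 432, 339 and 532 in Rragc S74N/+ replicates, the highest in replicate 5. Its log2 fold change was 0.22 (95% interval -0.02 to 0.47, adjusted p = 0.382 by limma), and 0.12 without that mouse.

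**Figure D3:**
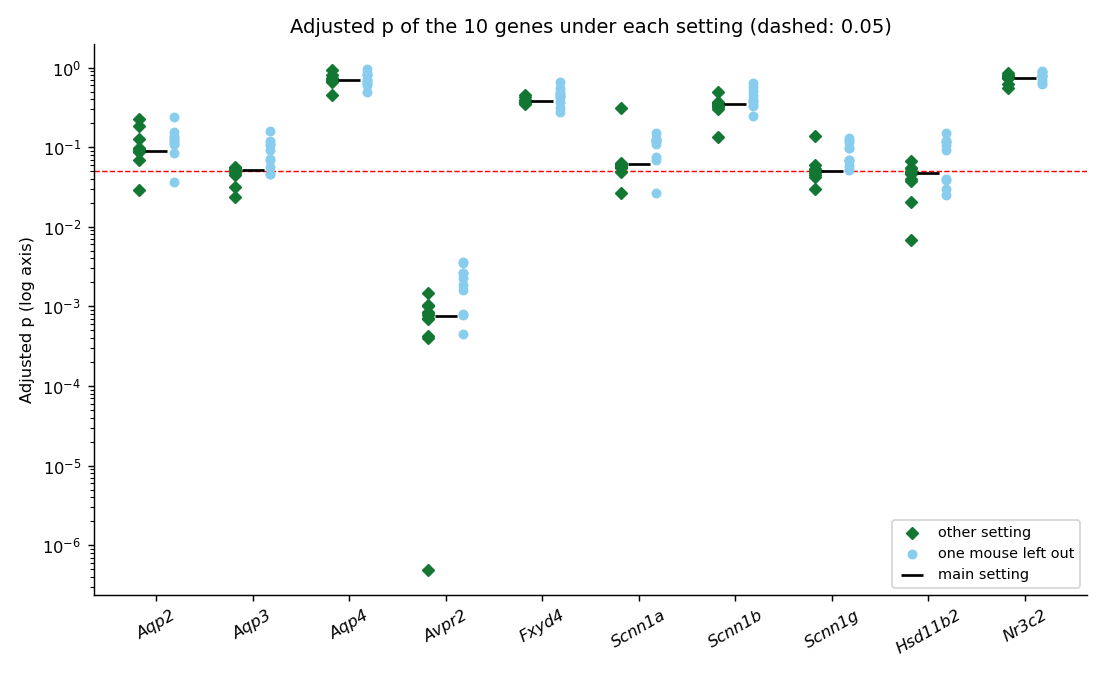
Adjusted p of each of the 10 genes (y axis, log scale) in the main setting (bar), in the other settings of the test (diamonds) and with each mouse left out (circles); the dashed line is 0.05. Avpr2 lies below the line throughout, Aqp2, Aqp3, Scnn1a, Scnn1g and Hsd11b2 lie on both sides of it, and Aqp4, Fxyd4, Scnn1b and Nr3c2 lie above it throughout.

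By level in Rragc+/+ kidneys, the order of mean normalized counts per transcript 3′ end was Hsd11b2 (739.7), Aqp2 (579), Scnn1a (351), Fxyd4 (341), Aqp4 (153), Scnn1b (145), Avpr2 (129), Aqp3 (122), Scnn1g (28.8) and Nr3c2 (12.8). Ranges of neighbours in this order overlapped between mice, except at the steps from Aqp2 to Scnn1a, from Fxyd4 to Aqp4, from Aqp3 to Scnn1g and from Scnn1g to Nr3c2. In Rragc S74N/+ kidneys Avpr2, with 193 to 292, no longer overlapped Aqp3, with 142 to 188. The coefficient of variation was higher in Rragc S74N/+ than in Rragc+/+ mice for 7 of the 10 genes and lower for 3, which was not tested. Without Rragc S74N/+ replicate 5 it was also higher for 7. The share over all genes was not taken, so these counts do not set the 10 genes apart. For Aqp2 the coefficient was 11.8% in Rragc+/+ and 36.6% in Rragc S74N/+ mice, and 14.3% in the latter without replicate 5. For Scnn1b it was 4.98% and 15.3%, and for Aqp4 7.95% and 21.2%. It was lower in Rragc S74N/+ mice for Scnn1g (18.5% and 10.4%), Aqp3 (16.2% and 11.9%) and Avpr2 (17.0% and 16.5%).

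Within genotypes, the 10 genes did not all move together, although some of them did. After the genotype mean was subtracted, Pearson's r over the 10 mice was above 0 for 24 of the 45 pairs, with a median of 0.06. Every pair among Aqp3, Scnn1g, Avpr2 and Hsd11b2 was above 0, from 0.44 to 0.77 (0.42 to 0.76 without Rragc S74N/+ replicate 5). The share over all pairs of genes was not taken. The highest values were 0.77 between Aqp3 and Scnn1g, 0.74 between Avpr2 and Hsd11b2 and 0.73 between Aqp2 and Fxyd4. Without Rragc S74N/+ replicate 5 these became 0.76, 0.72 and 0.26, so the likeness of Aqp2 and Fxyd4 rested on that mouse. The lowest values were -0.76 between Aqp4 and Scnn1b and -0.64 between Aqp2 and Nr3c2, which became -0.82 and -0.49 without it. Among 9128 other genes averaging 50 or more normalized counts, Med19, Ssh2, Hexa, Kif3b and Ccnd2 had the pattern most like Aqp2 (r from 0.92 to 0.95). Their r without replicate 5 was 0.74 to 0.85. Points in these comparisons share libraries and tissue pieces, and they are given as a description. Of these 5 genes, Hexa, which encodes a subunit of a lysosomal hexosaminidase, was lower in Rragc S74N/+ kidneys (log2 fold change -0.86, adjusted p = 0.00066 by limma), and the others did not pass.

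Of 12 genes that act in the response to aldosterone or on ENaC, 1 rose, 0 fell and 11 did not pass, with a median log2 fold change of -0.08. Usp2, a deubiquitinase that is known as a regulator of ENaC, had 1084, 749.7, 869, 877 and 827 normalized counts in Rragc+/+ replicates. It had 1113, 1263, 1154, 1217 and 1131 in Rragc S74N/+ replicates, without overlap (log2 fold change 0.42, standard error 0.09, adjusted p = 0.0131 by limma, and 0.0501 without Rragc+/+ replicate 5). Sgk1, the aldosterone-induced kinase that keeps ENaC at the membrane, had 886, 381, 317, 337 and 851 normalized counts in Rragc S74N/+ replicates, of which replicates 1 and 5 were high. In Rragc+/+ replicates it had 504, 291, 284, 255 and 286, with replicate 1 high, and the log2 fold change of 0.67 did not pass (standard error 0.26, adjusted p = 0.211 by limma, and 0.0445 with the run of library codes as a covariate). Nedd4l, the ubiquitin ligase that removes ENaC, had a log2 fold change of 0.05 (95% interval -0.16 to 0.26, adjusted p = 0.872 by limma).

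Of 15 genes of vasopressin and cAMP signalling, 0 rose, 1 fell and 14 did not pass (median log2 fold change -0.05). Ptger3, which encodes the EP3 receptor through which prostaglandin E2 opposes vasopressin, had 146, 161, 117, 144 and 141 normalized counts in Rragc+/+ replicates. It fell to 49.3, 39.0, 48.3, 58.3 and 33.1 in Rragc S74N/+ replicates, a log2 fold change of -1.63 (standard error 0.16, adjusted p = 3.68e-06 by limma). Ptger3 passed in all 11 other settings and with each of the 10 mice omitted in turn. Adcy6, an adenylyl cyclase that couples Avpr2 to cAMP, had a log2 fold change of -0.22 (95% interval -0.60 to 0.16, adjusted p = 0.643 by limma). Ptger3 is also expressed in the thick ascending limb, of whose 6 markers 3 fell, 1 rose and 2 did not pass; their part in the Ptger3 result was not tested.

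Among 7 genes for potassium channels, the sodium pump and urea transport, only Kcnj1 passed by limma, and it fell. By edgeR and by DESeq2, 2 of the 7 passed. Kcnj1, the potassium channel ROMK of principal cells and the thick ascending limb, had 277 to 414 normalized counts in Rragc+/+ and 133 to 265 in Rragc S74N/+ mice (log2 fold change -0.80, standard error 0.18, adjusted p = 0.0156 by limma, and 0.0629 in the second run alone). Of 5 measured other aquaporins, 1 fell and 4 did not pass by limma, while DESeq2 called 2. Aqp6, an aquaporin of intercalated cells, had 244 to 332 normalized counts in Rragc+/+ and 155 to 221 in Rragc S74N/+ mice (log2 fold change -0.71, adjusted p = 0.00192 by limma). Of 5 measured other FXYD genes, 1 fell and 4 did not pass: Fxyd6 differed by -0.63 on the log2 scale (adjusted p = 0.0478 by limma) and kept its call on omission of only 2 of the 10 mice in turn, Rragc+/+ replicates 2 and 4. Of 4 measured osmolyte genes of the medulla, 1 fell and 3 did not pass. Slc5a3, the myo-inositol transporter that responds to tonicity, had 799.7 to 914 normalized counts in Rragc+/+ and 329.9 to 653 in Rragc S74N/+ mice (log2 fold change -0.75, standard error 0.14, adjusted p = 0.00398 by limma, and 0.0504 in the second run alone).

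**Figure D4:**
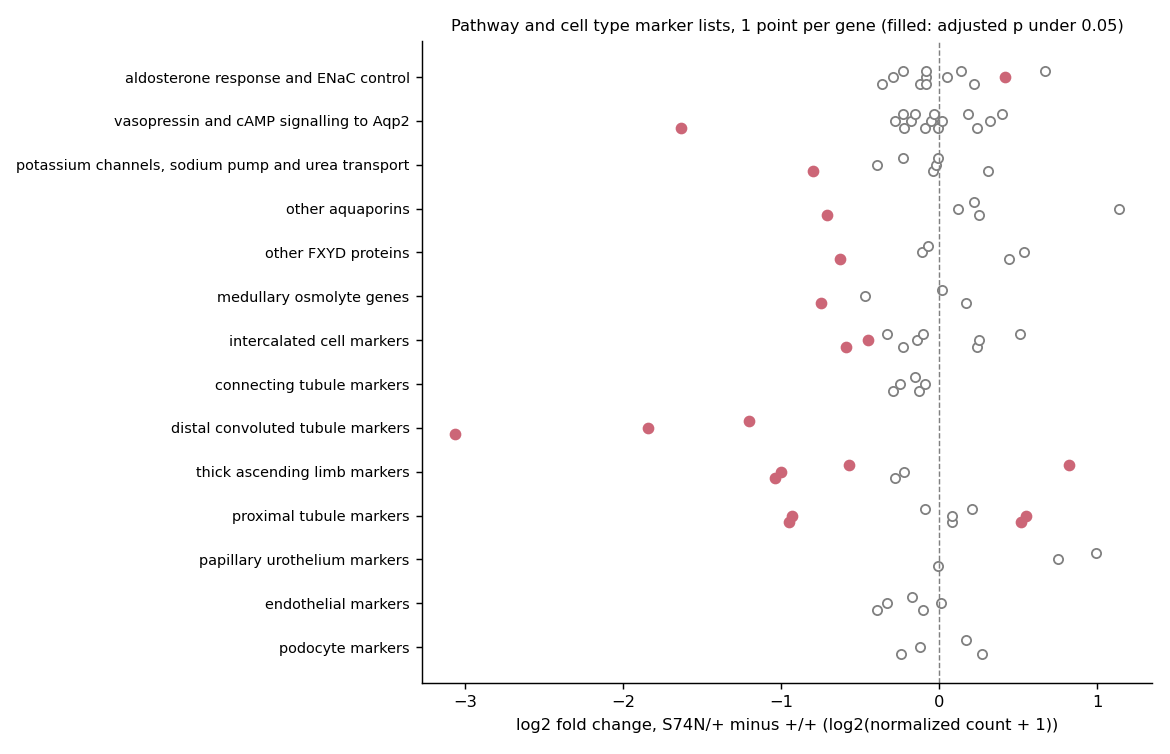
Log2 fold change (x axis, Rragc S74N/+ minus Rragc+/+) of each measured gene in the pathway and cell type lists; filled points have a limma adjusted p under 0.05. In each of the 6 pathway lists 1 gene passed, and Pvalb and Trpm6 of the distal convoluted tubule list lie furthest to the left (-3.06 and -1.84).

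Other markers of principal cells were compared in the same way. All 7 genes of that list (Apela, Npnt, Gata2, Gata3, Ptges, Stc1 and Elf5) were tested and 0 passed by limma; 0 had an unadjusted p under 0.05, and 0 passed by edgeR or DESeq2. Their log2 fold changes ran from 0.00 to 0.56, with a median of 0.27. Apela, the most abundant of the 7, had 1444 to 2038 normalized counts in Rragc+/+ and 1467 to 1919 in Rragc S74N/+ mice, with a log2 fold change of 0.09 (95% interval -0.13 to 0.31). Upper bounds of the intervals were 0.26 for Npnt, 0.36 for Gata3, 0.65 for Ptges, 0.77 for Gata2, 0.82 for Stc1 and 1.29 for Elf5, so several reached into the interval of Avpr2, 0.60 to 1.17. No difference between these markers and the 10 genes was tested. The summed normalized count of the list spanned 2375 to 3108 in Rragc+/+ mice, against 2565 to 3228 in Rragc S74N/+ mice, the highest again in Rragc S74N/+ replicate 5.

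**Figure D5:**
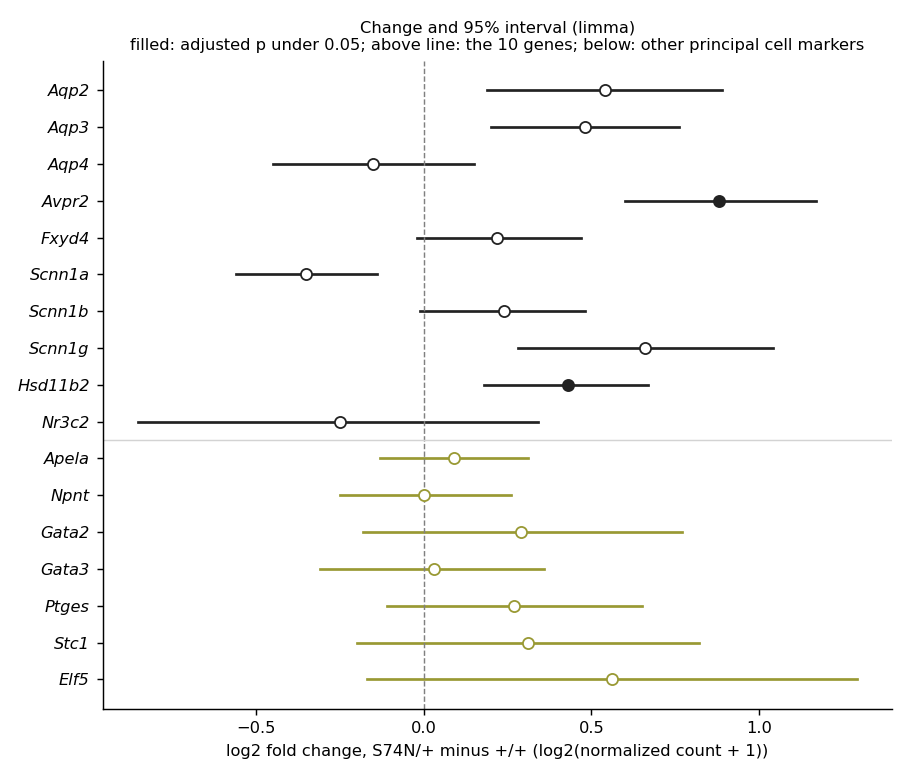
Log2 fold change (x axis) with its 95% interval from limma for the 10 genes (upper part) and 7 other principal cell markers (lower part); filled points have an adjusted p under 0.05. Avpr2 and Hsd11b2 are filled, and the intervals of all 7 other markers include 0.

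Markers of neighbouring cell types moved with genotype to different extents. Of 9 intercalated cell markers, 2 fell (Slc4a1 and Atp6v0d2, log2 fold changes -0.59 and -0.45, limma adjusted p = 0.0137 and 0.0194) and 7 did not pass. Over these 9, the log2 fold change was above 0 for 3 and below 0 for 6. The summed count of the intercalated cell markers was 1786 to 1896 in Rragc+/+ mice, against 1551 to 1778 in Rragc S74N/+ mice. All 3 distal convoluted tubule markers fell, with log2 fold changes of -1.20 for Slc12a3, -1.84 for Trpm6 and -3.06 for Pvalb (adjusted p = 2.61e-07, 1.74e-05 and 5.08e-09 by limma), and their summed count was 2676 to 3180 in Rragc+/+ and 978 to 1327 in Rragc S74N/+ mice. Of 5 connecting tubule markers 0 passed by limma, edgeR or DESeq2 (1 had an unadjusted p under 0.05), and the summed counts overlapped, from 20846 to 29077 and from 20452 to 28973. Of 6 thick ascending limb markers, Umod, Egf and Tmem72 fell, Cldn16 rose and 2 did not pass, with log2 fold changes of -1.0, -1.04, -0.57 and 0.82 (adjusted p = 0.000198, 0.00207, 0.0236 and 0.0028 by limma). The call of Tmem72 was lost without Rragc+/+ replicate 3 or 4, and that of Atp6v0d2 without Rragc S74N/+ replicate 2 or 4 or Rragc+/+ replicate 4 or 5 (limma adjusted p up to 0.078). Of 8 proximal tubule markers, Slc22a6 and Slc13a3 rose (log2 fold changes 0.52 and 0.55, adjusted p = 0.00105 and 0.0017 by limma), Slc5a2 and Slc5a12 fell (-0.93 and -0.95, adjusted p = 4.64e-05 and 0.00177) and 4 did not pass. Among 5 endothelial, 4 podocyte and 3 tested papillary urothelium markers, 0 passed by limma, edgeR or DESeq2, and 2, 1 and 1 had an unadjusted p under 0.05. Whether these shifts bear on the 10 genes was not tested.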

How the data were processed

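Kidney RNA of 5 Rragc+/+ and 5 Rragc S74N/+ mice was sequenced with QuantSeq 3′ libraries. The authors aligned reads to GRCm39 with TopHat2 2.0.10, assigned them to genes by strand with HTSeq 0.6.1 on GENCODE vM26, and tested genes with DESeq. What the authors deposited is a normalized signal: the reads of a gene in a library over the size factor of that library. In every library, 100% of values were whole reads (tolerance 0.01) after multiplication by the size factor. All 10 columns were matched to a mouse and 0 were left over.

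Values were tested as log2(value + 1) with limma 3.58.1 in R 4.3.3 (eBayes with a trend, two-sided) in genes with at least 10 normalized counts in at least 5 mice, and p-values were Benjamini-Hochberg adjusted over 13197 genes. On this scale the change of low genes is understated. edgeR 4.0.16 and DESeq2 1.42.0 were run on the recovered reads as alternatives. Each test was also run on simulated counts with the same dispersion for every gene, no effect of run and no unusual mouse. That setting differs from these data, so no support is drawn from it. The 10 genes and all lists were chosen with earlier results of these data known. Named genes are the 10, Sgk1, Nedd4l, Adcy6 and Kcnj1 (another gene of this rule is not reported here), every list gene that passed, and the 5 genes most like Aqp2 (the values of the other principal cell markers were added after they were seen). Mice are numbered in the order of their accessions. Alternatives were pseudocounts of 0.5 and 5, no filter, a mean of at least 50, TMM, quantile normalization, robust variances, edgeR, DESeq2, the run of library codes as a covariate, the second run alone, and leaving out each mouse.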

Additional observations from a re-analysis of the deposited data

Results flagged for a closer look

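Within a genotype of 5 mice, a value was marked when its gap to the nearest mouse took most of the range (Dixon's 95% limit). Of 66 groups checked (33 genes in each genotype), 5 were marked, and chance marks about 1 in 20. Sgk1 was highest in Rragc+/+ replicate 1, with 504 normalized counts. Aqp6 was lowest in Rragc+/+ replicate 4, with 244. Fxyd6 was lowest in Rragc S74N/+ replicate 1, with 37.0. Umod and Tmem72 were lowest in Rragc S74N/+ replicate 5, with 7760 and 310.4 normalized counts, the mouse with the highest papillary urothelium markers. None of the 10 transport genes was marked in either genotype.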

How the results depend on the processing

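Each of the 10 genes kept the direction of its difference in every setting run. The number of the 10 genes called was 2 in the main setting, 6 with DESeq2 (4.91% of all genes called), 5 with the run of library codes as a covariate (6.3% of all genes), and 1 with TMM rescaling and with edgeR; it was 1 to 3 with a mouse left out, and 1 without Rragc S74N/+ replicate 1 or 5 or Rragc+/+ replicate 3, 4 or 5. With DESeq2, Aqp2 (log2 fold change 0.60), Aqp3 (0.47), Scnn1a (-0.35) and Scnn1g (0.66) also passed. With the covariate, Aqp3 (0.50), Scnn1a (-0.35) and Scnn1g (0.70) passed. Aqp3 passed with robust variances and with a mean of at least 50 (0.48 each), and Scnn1g with a pseudocount of 5 (0.59) and quantile normalization (0.68). Hsd11b2 did not pass with a mean of at least 50 (0.43), TMM (0.42), edgeR (0.42) or quantile normalization (0.41). The causes were not tested. With each mouse left out, log2 fold changes ran from 0.35 to 0.65 for Aqp2, 0.41 to 0.54 for Aqp3, -0.41 to -0.32 for Scnn1a, 0.56 to 0.74 for Scnn1g and 0.36 to 0.50 for Hsd11b2. Of all genes, 3.69% were called, 6.3% with the covariate and 2.24% to 3.53% with a mouse left out (2.35% without Rragc+/+ replicate 4 and 2.24% without replicate 5). Nedd4l ran from -0.00195 (without Rragc S74N/+ replicate 3) to 0.13. Scnn1g and Nr3c2 were not tested under the filter of a mean of at least 50. No paired analysis was possible because the labels give no replicate numbers shared between genotypes. Reads of 8 to 16 for Nr3c2 and 19 to 53 for Scnn1g limit their precision.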
